A study of Mus musculus with 12 samples.

Results

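Imprinted genes of the mouse were followed through RNA-seq of mouse embryonic fibroblasts (MEFs). They were chosen by name: 38 autosomal genes known to be imprinted in mouse were looked up in the table of read counts, which lists 32168 genes. A row was found for 37 of them, in 16 clusters or single loci; Magel2 was not analysed here. Of these 37, 19 are expressed from the paternal copy, 17 from the maternal copy, and Gnas from either copy depending on the transcript. After a filter on low counts 32 of the 37 were tested among 16595 genes, 16 of paternal, 15 of maternal and 1 of mixed origin. Of the 32, 21 reached the level that the filter asks for in at least 1 treatment group of each genotype, 9 in WT groups alone and Phlda2 in DKO groups alone. Zim1 reached it in no whole group. Zim1 had 0 counts in every DKO library, so it too passed through WT libraries. Members that passed through 1 genotype are favoured to differ between genotypes, although Ppp1r9a was among them and was not called in DMSO. Counts over the 32 tested members therefore describe them and support no general statement.

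MEFs are fibroblast cultures from embryos, here from embryonic day 13.5 at passage 4 to 10. DKO cells lacked both Lats1 and Lats2, the kinases of the Hippo pathway that hold back the coactivators YAP and TAZ; WT cells carried neither deletion. Cells received MGH-CP1 (CP1) at 1 µM in DMSO, or DMSO alone, for 4 days or 2 days. CP1 is an inhibitor of TEAD palmitoylation, and TEADs are the DNA-binding partners of YAP and TAZ. The 8 groups were DKO CP1 and WT CP1 at each day, with 2 repeats a group, and DKO DMSO and WT DMSO at each day, with 1 library a group. The labels do not say how the deletions were made, nor how many embryos or cell lines stand behind a genotype, so a difference between genotypes and a difference between lines cannot be told apart. Nothing says that repeats were separate cultures, and p-values then measure only the spread between these libraries, which may be technical.

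Genomic imprinting is the expression of a gene mainly from the copy inherited from 1 parent. Imprinted genes lie in clusters, each governed by a control region whose DNA methylation is set in the egg or the sperm and kept through later cell divisions, and many clusters include a long non-coding RNA that keeps neighbouring genes silent on its own chromosome. Paternally expressed genes such as Igf2 are known mostly as promoters of fetal growth, and maternally expressed genes such as Igf2r, Grb10 and Phlda2 mostly as restraints on it. The values below are totals of both copies: they do not show which copy was read, nor the methylation of any control region. In RNA from whole cultures, fewer cells expressing a gene and less RNA per cell cannot be told apart.

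Library totals ran from 16970834 to 25299262 counts, so a level of 1 CPM (reads scaled by library total) stood for about 17 to 25 reads. In DKO libraries Lats1 ran at 14.3 to 35.6% and Lats2 at 26.3 to 31.1% of the WT DMSO mean, against 82.5 to 102% and 76.9 to 104% in WT libraries. Over all tested genes 34.8% were called lower and 32.7% higher in DKO DMSO than in WT DMSO, shares that stand beside each marker count here. Of 14 fibroblast markers 13 were lower in DKO DMSO than in WT DMSO cells and 1 was higher. Their summed level was 17405 to 22647 CPM in DKO CP1 libraries, 12049 to 12272 in DKO DMSO, 20991 to 27716 in WT CP1 and 31064 to 31791 in WT DMSO, with Thy1 at 0 counts in both DKO DMSO libraries. Markers of trophoblast, a tissue known for imprinted expression, summed to at most 0.32 CPM in any library. Of markers of other cell types that were tested, 3 of 4 neural and 3 of 3 macrophage genes were higher in DKO DMSO than in WT DMSO, with 541 to 547 against 272 to 278 CPM in the neural sum and 10.11 to 10.88 against 4.92 to 6.21 CPM in the macrophage sum. Of 4 endothelial genes 1 was higher and 1 lower, with sums of 57.28 to 71.93 against 14.81 to 16.88 CPM. Of 5 epithelial genes 1 was higher and 2 lower, with sums of 16.35 to 16.89 against 7.53 to 8.12 CPM, and the germ cell gene tested was lower. A few genes made up most of these sums. In DKO DMSO at 4 and 2 days Cd68 had 7.42 and 7.68 CPM, Kdr 56.76 and 71.35, Nes 248 and 408, and Map2 285 and 117. The macrophage genes Ptprc and Adgre1 had 0 to 2 counts in those libraries. Endothelial Tek had 0.35 and 0.29 CPM there against 3.69 and 4.30 CPM in WT DMSO. The part of these marker lists in the results below was not tested. A pair of DKO libraries stood apart. DKO CP1 at 2 days, repeat 2, had 311 H19 counts where repeat 1 had 88, and held most of the reads seen under CP1 in DKO cells for Dlk1 and Meg3. In DKO DMSO at 2 days some transcripts were low relative to 4 days: Hells, a chromatin remodeller, had 138 CPM at 4 days and 49.81 CPM at 2 days. Genes with 10 kb or more of exon were spread widely and not lower as a class. Their log2 ratio of 2 over 4 days had a median of −0.00 and quartiles of −0.69 and 0.30. In WT DMSO the median was 0.02 and the quartiles −0.03 and 0.08.

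The promoters of 7 members that carry the contrasts below show how unlike they are in sequence. Each line is 250 bases before to 50 bases after an annotated start (RefSeq, GRCm38.p6, strand of the gene). In the first 5 the dinucleotide CG, the site of DNA methylation, is in capitals. Ndn, Dlk1 and Meg3 were nearly silent in DKO cells, Peg12 is the neighbour of Ndn that was not, and Igf2r stayed high in every library. In Igf2 and Snrpn, which moved in opposite directions with CP1 in DKO cells, capitals mark the core of the TEAD motif, GGAATG or its reverse complement CATTCC.
Ndn: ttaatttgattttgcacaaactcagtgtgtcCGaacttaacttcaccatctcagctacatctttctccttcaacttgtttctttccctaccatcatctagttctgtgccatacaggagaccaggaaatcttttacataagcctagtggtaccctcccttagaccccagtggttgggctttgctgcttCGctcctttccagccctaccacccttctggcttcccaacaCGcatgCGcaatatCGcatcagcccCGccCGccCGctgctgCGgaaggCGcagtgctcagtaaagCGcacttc
Peg12: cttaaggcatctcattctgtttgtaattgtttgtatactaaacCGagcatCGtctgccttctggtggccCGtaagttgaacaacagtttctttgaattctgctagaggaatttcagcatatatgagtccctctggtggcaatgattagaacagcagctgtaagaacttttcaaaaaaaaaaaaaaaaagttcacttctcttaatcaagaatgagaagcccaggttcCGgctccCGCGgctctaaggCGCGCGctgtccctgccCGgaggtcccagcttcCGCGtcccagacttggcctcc
Dlk1: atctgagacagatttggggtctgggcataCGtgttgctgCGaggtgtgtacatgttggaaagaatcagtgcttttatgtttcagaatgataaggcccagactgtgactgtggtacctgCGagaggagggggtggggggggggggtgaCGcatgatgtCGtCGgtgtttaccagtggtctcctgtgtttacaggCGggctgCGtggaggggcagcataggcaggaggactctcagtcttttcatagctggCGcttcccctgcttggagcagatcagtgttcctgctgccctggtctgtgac
Meg3: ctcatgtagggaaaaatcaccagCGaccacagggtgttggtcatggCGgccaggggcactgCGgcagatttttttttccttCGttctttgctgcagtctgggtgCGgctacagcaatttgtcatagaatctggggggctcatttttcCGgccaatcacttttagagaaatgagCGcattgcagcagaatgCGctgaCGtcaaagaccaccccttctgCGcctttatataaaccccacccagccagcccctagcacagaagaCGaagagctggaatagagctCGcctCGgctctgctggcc
Igf2r: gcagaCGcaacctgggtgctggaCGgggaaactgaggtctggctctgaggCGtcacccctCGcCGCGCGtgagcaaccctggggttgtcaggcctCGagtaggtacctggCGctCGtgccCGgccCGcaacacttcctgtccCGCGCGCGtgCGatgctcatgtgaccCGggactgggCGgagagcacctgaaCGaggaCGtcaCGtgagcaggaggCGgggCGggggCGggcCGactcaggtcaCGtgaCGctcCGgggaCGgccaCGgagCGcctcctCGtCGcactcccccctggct
Igf2: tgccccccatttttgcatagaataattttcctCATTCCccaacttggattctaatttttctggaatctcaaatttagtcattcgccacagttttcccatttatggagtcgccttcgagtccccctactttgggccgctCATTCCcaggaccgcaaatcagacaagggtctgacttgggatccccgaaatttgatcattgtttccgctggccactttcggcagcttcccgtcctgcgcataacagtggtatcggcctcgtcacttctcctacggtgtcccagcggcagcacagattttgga
Snrpn: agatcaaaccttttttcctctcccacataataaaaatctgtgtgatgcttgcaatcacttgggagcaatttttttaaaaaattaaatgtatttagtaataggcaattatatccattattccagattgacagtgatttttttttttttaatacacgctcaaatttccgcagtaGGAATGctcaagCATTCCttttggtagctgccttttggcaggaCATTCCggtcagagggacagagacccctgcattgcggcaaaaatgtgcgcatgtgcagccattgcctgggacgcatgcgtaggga
The Ndn window lies at chr7:62348027-62348326 on the plus strand and holds 11 CG, 0.62 times the number its base content would give. Peg12 (chr7:62464461-62464760, minus) holds 12, a ratio of 0.73. Dlk1 (chr12:109452573-109452872, plus) holds 9, a ratio of 0.43, and Meg3 (chr12:109540746-109541045, plus, 1 of 2 windows) holds 13, a ratio of 0.60; the other Meg3 window holds 1, a ratio of 0.06. Igf2r (chr17:12769657-12769956, minus) holds 34, a ratio of 0.91, where the median of 32807 windows of all genes was 0.38. The Igf2 window (chr7:142661222-142661521, minus), 1 of 4 for that gene, holds 2 matches to the TEAD core, and the Snrpn window (chr7:60005150-60005449, minus), also 1 of 4, holds 3. For both genes the window with most matches is shown. The other Igf2 windows hold 1, 1 and 0 matches, and the other Snrpn windows hold 0 each. Windows were found for 31 members, 50 in all. GGAATG, searched on both strands, stood in 18% of the members' windows and 14.7% of all windows. TGCCGC, the site of the imprint protector ZFP57, stood in 20% against 11.6%, and GCCATNTT, the core of the YY1 motif, in 4% against 6.04%. These matches are letters and not measured binding. Overlapping windows of Mest, and of Peg3 and Usp29, count the same site more than once. TGCCGC holds a CG, and the windows compared were not matched for CG content. Among 12 members with a window and a mean in DKO DMSO under 10% of WT DMSO, the highest CG ratio of a gene had a median of 0.55 and a range of 0.00 to 0.90, and among 15 other tested members a median of 0.73 and a range of 0.09 to 0.97, so the ranges overlapped almost throughout.

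In DMSO most of the tested members were called between DKO and WT cells, and most of the large differences among them were losses. Of 32 tested members 5 were higher and 20 lower in DKO DMSO cells (edgeR, Benjamini-Hochberg adjusted p under 0.05 over all 16595 genes), 78.1% in all. Over all genes 67.5% were called, 32.7% higher and 34.8% lower, so much of the share called is what any genes showed in these cells. Lower calls outnumbered higher ones among the members, where over all genes the shares were close. The median log2 fold change was −0.90 over the members and −0.06 over all genes. By origin, 3 of 16 paternally expressed members were higher and 11 lower, with a median of −2.54, and 1 of 15 maternally expressed members was higher and 9 lower, with a median of −0.54. The mean CPM in DKO DMSO was under 10% of the WT DMSO mean for 13 of the 32 (40.6%), against 7.62% of all tested genes; this limit was chosen after the values were seen. Of the 13, 8 are paternally and 5 maternally expressed, so loss was seen on genes of either origin. They were H19, Igf2, Airn, Peg3, Zim1, Dlk1, Meg3, Rian, Mirg, Mest, Plagl1, Ndn and Kcnq1ot1, and the next member above the limit, Sgce, was at 37.9%. Of these, Peg3, Dlk1, Meg3, Rian, Mirg, Mest, Ndn and Kcnq1ot1 reached the filter level in WT groups alone, and Zim1 passed through WT libraries. The share of 40.6% therefore describes these members and is no test of a loss particular to imprinted genes. Of 25 other imprinted genes tested, outside the members, 12 were higher and 9 lower in DKO DMSO, with a median of 0.19.

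**Figure D1:**
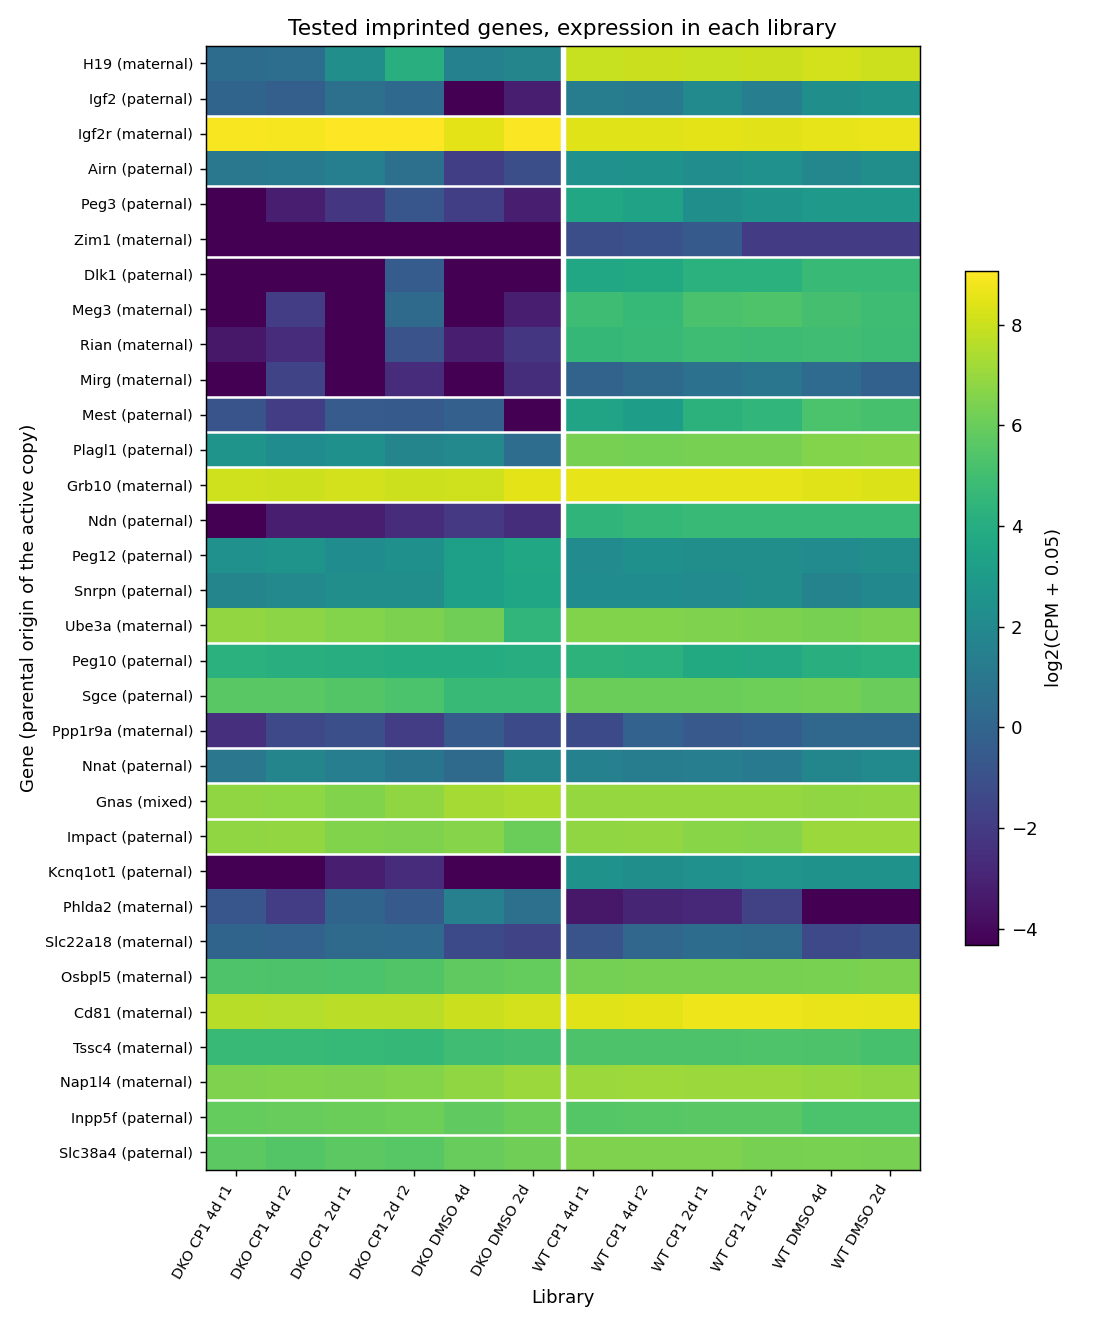
Level of each tested imprinted gene (rows, by cluster) in each of the 12 libraries (columns, DKO to the left of WT, CP1 before DMSO and 4 days before 2 days), as log2(CPM + 0.05) from dark (low) to yellow (high). Rows such as Ndn, Dlk1 and Meg3 are green across WT columns and dark across DKO columns, while Igf2r, Grb10 and Cd81 are yellow to light green in all 12.

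At the Igf2–H19 cluster both genes were far lower in DKO DMSO cells. H19 (chr7:142575529-142578143, minus strand) is a maternally expressed long non-coding RNA of fetal tissues, and in WT DMSO cells its level per length was 382 ± 16.9 TPM (length-scaled transcript share; SD, n = 2), above every other member but Cd81. H19 had 2.86 and 3.38 CPM in DKO DMSO at 4 and 2 days, against 280 and 261 CPM in WT DMSO. The log2 fold change was −6.62 (SE 0.74, adjusted p = 0.000161), and DKO DMSO cells kept 1.15% of the WT mean. Igf2 (chr7:142650766-142666816, minus strand), the paternally expressed fetal growth factor, was already low in WT cells. It had 0.00 and 0.06 CPM in DKO DMSO, 1 count in all, against 4.97 and 5.72 CPM in WT DMSO, 218 counts. That is a 183-fold lower level with a counting interval of 32.6 to 7276 (adjusted p = 1.6e-07).

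The Igf2r–Airn cluster on chromosome 17 behaved differently for its 2 tested genes. Igf2r (chr17:12682406-12769664, minus strand) encodes the receptor that carries IGF2 to the lysosome. Per length it had 138 ± 27.9 TPM in DKO DMSO and 149 ± 7.0 TPM in WT DMSO (SD, n = 2 each). It had 368 and 513 CPM in DKO DMSO and 386 and 409 CPM in WT DMSO, ranges that overlap (log2 fold change 0.13, SE 0.09, adjusted p = 0.217). Airn (chr17:12741311-12860136, plus strand) is the paternally expressed antisense RNA that silences Igf2r in cis. It had 0.23 and 0.41 CPM in DKO DMSO against 3.59 and 4.79 CPM in WT DMSO, a log2 fold change of −3.68 (SE 0.40, adjusted p = 2.89e-06). Airn overlaps Igf2r on the other strand, and since the strand setting of the counting is not stated, reads in the shared stretch cannot be assigned for certain. Slc22a3, a transporter gene of this cluster imprinted in placenta, had 1 count in 1 DKO CP1 library and none elsewhere.

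From Dlk1 to Mirg, the Dlk1–Meg3 cluster on chromosome 12 was nearly silent in DKO DMSO cells. Dlk1 (chr12:109452823-109463336) encodes a paternally expressed membrane protein that restrains adipocyte differentiation. It had 0 counts in both DKO DMSO libraries, against 27.02 and 26.71 CPM in WT DMSO, or 1095 counts, and was at least 307-fold lower (bound from 3 counts over the group; adjusted p = 5.64e-06). Meg3 (chr12:109541001-109571726), the first of the maternally expressed non-coding RNAs of the cluster, had 0.00 and 0.06 CPM in DKO DMSO, 1 count, against 34.40 and 30.03 CPM in WT DMSO, 1313 counts. It was 1105-fold lower, with a counting interval of 198 to 43660 (adjusted p = 2.57e-05). Rian, a host of small nucleolar RNAs on the same strand, had 0.06 and 0.17 CPM in DKO DMSO against 31.20 and 29.06 CPM in WT DMSO (log2 fold change −8.17, SE 0.41, adjusted p = 3.72e-09). Mirg, a host of microRNAs, was low in WT cells too, with 2 counts in the DKO DMSO libraries against 42 in WT DMSO, a 17.7-fold difference with a counting interval of 4.60 to 151 (adjusted p = 0.00463). Rtl1, a paternally expressed gene derived from a retrotransposon, was not tested and had 0 to 1 counts in DKO libraries and 4 to 9 in WT libraries. Between Dlk1 and 20 kb past Mirg the table has 25 further rows, 17 of microRNAs and 5 of small nucleolar RNAs. These 25 rows held 0 counts over the 6 DKO libraries and 117 over the 6 WT libraries, with at most 9 in any row and library. The table lists no gene without a read, so these rows are present only through their WT reads and support no statement about DKO cells. Among the members named above, genes of both parental origins were nearly silent in the same stretch in DKO DMSO cells. Dio3, a paternally expressed deiodinase gene past the far end of it and not among the 38, was lower but not silent, with 0.88 and 0.64 CPM in DKO DMSO against 9.74 and 10.71 CPM in WT DMSO (log2 fold change −3.90, SE 0.34). Without DKO DMSO at 2 days Dlk1 (adjusted p = 1) and Meg3 (adjusted p = 0.0933) were no longer called in DMSO, although the 1 DKO DMSO library left held 0 counts of each, and without DKO DMSO at 4 days Mirg was not.

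**Figure D2:**
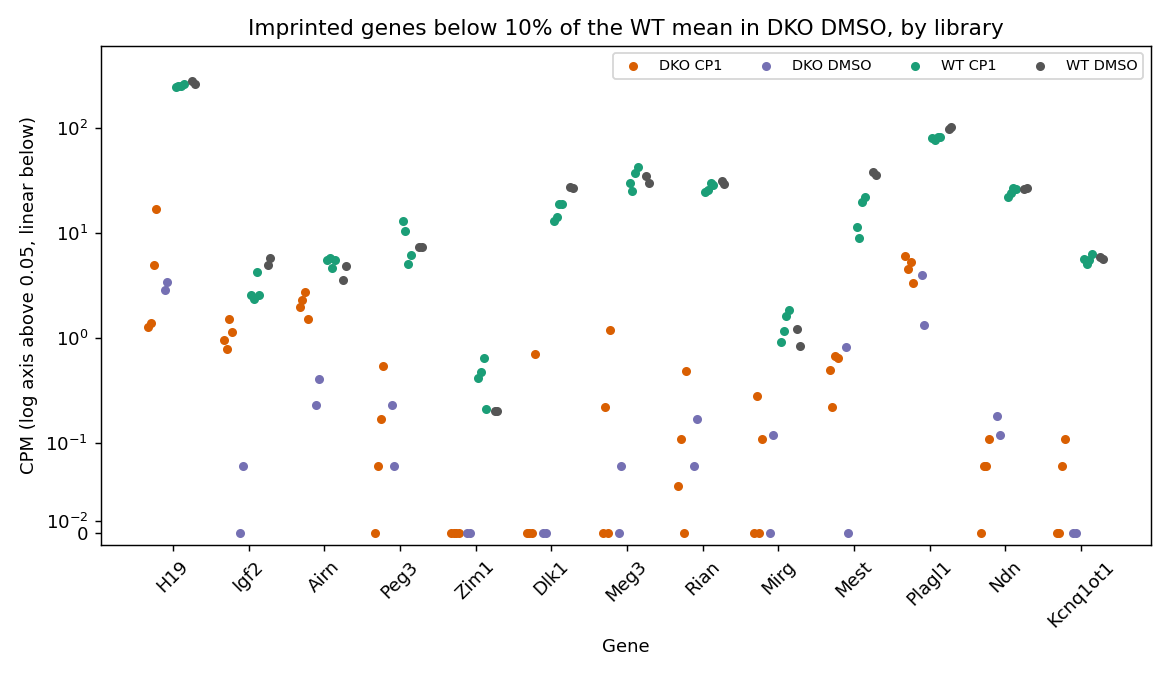
CPM (log axis above 0.05, linear below) in each library for the 13 imprinted genes whose DKO DMSO mean lay under 10% of the WT DMSO mean, with DKO libraries left of WT libraries for each gene. DKO points lie below WT points, which the choice of these genes favours. They were picked for low DKO DMSO means, and most passed the filter through WT libraries alone. Igf2 and Airn show higher points in DKO CP1 than in DKO DMSO.

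Losses were also seen at single loci and in other clusters. Mest (chr6:30723547-30748465), a paternally expressed gene of embryonic mesoderm that codes for a hydrolase, had 0.82 and 0.00 CPM in DKO DMSO against 38.04 and 35.37 CPM in WT DMSO (log2 fold change −6.51, SE 0.64, adjusted p = 2.46e-05). Plagl1 (chr10:13060504-13131694), a paternally expressed zinc finger regulator of other imprinted genes, had 3.97 and 1.34 CPM in DKO DMSO against 97.24 and 101 CPM in WT DMSO (log2 fold change −5.27, SE 0.24, adjusted p = 1.08e-08). Kcnq1ot1 (chr7:143203458-143296549, minus strand) is the paternally expressed antisense RNA that silences the coding genes of its cluster. It had 0 counts in DKO DMSO against 5.86 and 5.63 CPM in WT DMSO, 234 counts, and was at least 65.6-fold lower (adjusted p = 8.22e-08; the call was lost without DKO DMSO at 2 days). Kcnq1, the gene it overlaps, had 0 to 2 counts in every library.

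Peg3, Zim1 and Usp29 make up the proximal cluster of chromosome 7. Peg3 (chr7:6703892-6730431), a paternally expressed zinc finger gene, had 0.23 and 0.06 CPM in DKO DMSO against 7.33 and 7.34 CPM in WT DMSO. The log2 fold change of −5.78 (SE 0.70, adjusted p = 2.44e-05) became −3.15 (adjusted p = 0.181) without DKO DMSO at 2 days. Zim1, a maternally expressed zinc finger gene, had 0 counts in all 6 DKO libraries and only 8 counts in WT DMSO, a call (adjusted p = 0.0336) that was lost without any 1 of the 4 DMSO libraries. Usp29 had 5 counts in all, each in WT CP1 libraries, and was not tested.

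In the Snrpn–Ube3a region of chromosome 7, named in human for Prader-Willi and Angelman syndromes, genes of the same parental origin differed in direction. Ndn (chr7:62346569-62350262), which encodes the paternally expressed growth suppressor necdin, had 0.18 and 0.12 CPM in DKO DMSO against 25.94 and 26.56 CPM in WT DMSO (log2 fold change −7.45, SE 0.27, adjusted p = 1.56e-10). Peg12 (chr7:62461871-62464510), also paternally expressed and the nearest member to Ndn with a row, was higher, with 9.29 and 12.45 CPM in DKO DMSO against 4.28 and 4.84 CPM in WT DMSO (log2 fold change 1.25, SE 0.19, adjusted p = 8e-05). Snrpn (chr7:59982495-60140219), a paternally expressed splicing factor gene, was higher too, with 9.24 and 11.99 CPM in DKO DMSO against 3.15 and 3.77 CPM in WT DMSO (log2 fold change 1.61, SE 0.16, adjusted p = 1.73e-06). Ndn was therefore below, and Peg12 and Snrpn above, both WT DMSO libraries. Ube3a (chr7:59228750-59311536) encodes a ubiquitin ligase and is imprinted in neurons, with the maternal copy active. It had 71.19 and 22.64 CPM in DKO DMSO against 81.40 and 87.07 CPM in WT DMSO, so the 2 DKO libraries were far apart. Its log2 fold change of −0.98 (SE 0.29, adjusted p = 0.0185) shrank to −0.39 without DKO DMSO at 2 days and was no longer called without either WT DMSO library.

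At the Peg10–Sgce cluster of chromosome 6 the paternally expressed neighbours parted. Sgce, which encodes epsilon-sarcoglycan, had 26.36 and 26.59 CPM in DKO DMSO against 75.00 and 64.76 CPM in WT DMSO (log2 fold change −1.40, SE 0.10, adjusted p = 7.08e-08). Peg10 is derived from a retrotransposon and lies on the plus strand at chr6:4747306-4760517, head to head with Sgce on the minus strand at chr6:4674350-4747207. It had 15.37 and 15.95 CPM in DKO DMSO against 16.73 and 18.39 CPM in WT DMSO, a log2 fold change of −0.17 that did not pass. Ppp1r9a, imprinted in placenta, had 0.64 and 0.35 CPM in DKO DMSO against 1.08 CPM in each WT DMSO library and did not pass. Asb4 was not tested, with 0 counts in DKO libraries and 0 to 6 in WT libraries.

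The members that code for proteins in the Kcnq1ot1 cluster are all maternally expressed, and Osbpl5, Cd81, Tssc4 and Nap1l4 are known as imprinted in placenta, so no imprint is implied for them in fibroblasts. Phlda2 (chr7:143501545-143503150), which restrains placental growth, had 2.75 and 1.51 CPM in DKO DMSO and 0 counts in both WT DMSO libraries, and was at least 28.9-fold higher (adjusted p = 5.9e-05). Osbpl5, a lipid transfer protein gene, had 56.35 and 59.47 CPM in DKO DMSO against 83.66 and 84.67 CPM in WT DMSO (log2 fold change −0.54, SE 0.08, adjusted p = 4.36e-05). Cd81, a tetraspanin gene and the member with the highest TPM, had 254 and 287 CPM in DKO DMSO against 390 and 384 CPM in WT DMSO (log2 fold change −0.52, SE 0.08, adjusted p = 0.000113). The fall of Tssc4, a splicing protein gene, by 0.22 on the log2 scale (SE 0.09, adjusted p = 0.0408) was lost without any 1 of 7 libraries. Nap1l4, a histone chaperone gene, and Slc22a18, a transporter gene, did not pass (log2 fold change 0.07 and −0.26). Cdkn1c, a maternally expressed inhibitor of cell division in this cluster that is not among the 38, had 10.87 and 18.33 CPM in DKO DMSO against 4.92 and 4.16 CPM in WT DMSO (log2 fold change 1.69, SE 0.37, adjusted p = 0.00276), a call lost without WT DMSO at 2 days.

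Of the other loci, Inpp5f and Gnas were higher in DKO DMSO cells and Impact and Slc38a4 lower. Inpp5f, a phosphoinositide phosphatase gene of which 1 isoform is imprinted in brain, had 56.11 and 66.75 CPM in DKO DMSO against 38.63 and 39.03 CPM in WT DMSO (log2 fold change 0.66, SE 0.08, adjusted p = 4.89e-06). Gnas, whose locus codes for the stimulatory G protein alpha subunit and has transcripts of either origin, had 153 and 174 CPM in DKO DMSO against 115 and 119 CPM in WT DMSO (log2 fold change 0.48, SE 0.10, adjusted p = 0.00107). Neither rise was called on the log2(TPM + 1) scale. Impact, a paternally expressed inhibitor of the GCN2 kinase, had 100 and 65.99 CPM in DKO DMSO against 133 CPM in each WT DMSO library (log2 fold change −0.71, SE 0.09, adjusted p = 1.09e-05). Slc38a4, an amino acid transporter gene, fell by 0.27 on the log2 scale (SE 0.09, adjusted p = 0.022), a call lost without DKO DMSO at 4 days or either WT DMSO library. Grb10, an adaptor that restrains insulin and IGF signalling, had 272 and 364 CPM in DKO DMSO against 344 and 333 CPM in WT DMSO and did not pass (log2 fold change −0.10). Nnat, a proteolipid gene of neurons, did not pass (−0.81), and Rasgrf1, imprinted in brain, was not tested, with 0 to 4 counts in DKO libraries and 0 to 11 in WT libraries.

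In DKO cells CP1 changed about as large a share of the members as of all genes. Of 32 tested members 8 were higher and 9 lower in DKO CP1 than in DKO DMSO, 53.1%, where 51.9% of all genes were called, 24.2% higher and 27.6% lower. Of the 13 members under 10% of WT in DMSO 3 were called, all higher: Igf2, Airn and Plagl1. DKO DMSO libraries serve here and in the genotype comparison, so a gene that is low in them tends to show a fall in one and a rise in the other.

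Among the called members Igf2 and Airn showed the largest rises. Igf2 had 0.96, 0.78, 1.5 and 1.13 CPM in DKO CP1 (4 days repeats 1 and 2, then 2 days repeats 1 and 2), against 0.00 and 0.06 CPM in DKO DMSO. With 85 counts against 1 it was 37.2-fold higher, with a counting interval of 6.50 to 1487 (adjusted p = 8.33e-05). Airn had 1.97, 2.29, 2.72 and 1.51 CPM in DKO CP1 against 0.23 and 0.41 CPM in DKO DMSO (log2 fold change 2.70, SE 0.40, adjusted p = 0.000115). For both genes each DKO CP1 library lay above each DKO DMSO library and below each WT CP1 library. H19, the neighbour of Igf2, had 1.26, 1.4, 4.89 and 16.74 CPM in DKO CP1 against 2.86 and 3.38 CPM in DKO DMSO, with ranges that overlap, and was not called (log2 fold change 0.68, adjusted p = 0.495). Igf2r had 490, 480, 525 and 537 CPM in DKO CP1 against 368 and 513 CPM in DKO DMSO. Its small rise (log2 fold change 0.22, SE 0.08, adjusted p = 0.035) was lost without any 1 of 6 libraries, DKO DMSO at 4 days among them. Plagl1 rose by 0.89 on the log2 scale (SE 0.26, adjusted p = 0.0151) although the groups overlapped, and not without DKO DMSO at 2 days.

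Peg12, Snrpn and Ube3a of the Snrpn–Ube3a region moved towards the WT level. Peg12 had 5.40, 5.98, 4.50 and 5.22 CPM in DKO CP1 against 9.29 and 12.45 CPM in DKO DMSO (log2 fold change −1.04, SE 0.16, adjusted p = 0.000162). Snrpn had 3.39, 3.97, 4.89 and 4.85 CPM in DKO CP1 against 9.24 and 11.99 CPM in DKO DMSO (log2 fold change −1.32, SE 0.13, adjusted p = 5.02e-06). Ube3a had 118, 106, 96.15 and 86.73 CPM in DKO CP1 against 71.19 and 22.64 CPM in DKO DMSO (log2 fold change 1.25, SE 0.27, adjusted p = 0.00535; 0.66 without DKO DMSO at 2 days). Ndn in the same region had 0.00, 0.06, 0.06 and 0.11 CPM in DKO CP1 against 0.18 and 0.12 CPM in DKO DMSO and was not called (adjusted p = 0.185). Sgce was higher in each DKO CP1 library, with 49.22, 49.75, 44.10 and 39.03 CPM against 26.36 and 26.59 CPM in DKO DMSO (log2 fold change 0.78, SE 0.09, adjusted p = 1.55e-05).

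The other rises were those of Impact (log2 fold change 0.34, SE 0.08, adjusted p = 0.0029, with groups that overlap) and of Slc22a18, from a low level (1.67, SE 0.44, adjusted p = 0.00641, lost without DKO DMSO at 2 days). The other falls ran from −0.38 to −0.59 on the log2 scale in Gnas, Osbpl5, Cd81, Tssc4, Nap1l4 and Slc38a4, and Phlda2 fell by 1.87 (SE 0.48, adjusted p = 0.00647, lost without DKO DMSO at 4 days). Gnas, for instance, had 113, 110, 93.76 and 117 CPM in DKO CP1 against 153 and 174 CPM in DKO DMSO (adjusted p = 0.000105). In the first 6 every DKO CP1 library lay below both DKO DMSO libraries. With log2(TPM + 1) as the scale, on which all genes together had a median of 0.23 for CP1 in DKO cells, none of the 6 was called. Dlk1, Meg3, Rian, Mirg, Peg3, Zim1, Mest and Kcnq1ot1 were not called. Under CP1 in DKO cells Dlk1 had 13 counts, all in repeat 2 at 2 days, and Meg3 had 26 counts, of which 22 were in that library.

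**Figure D3:**
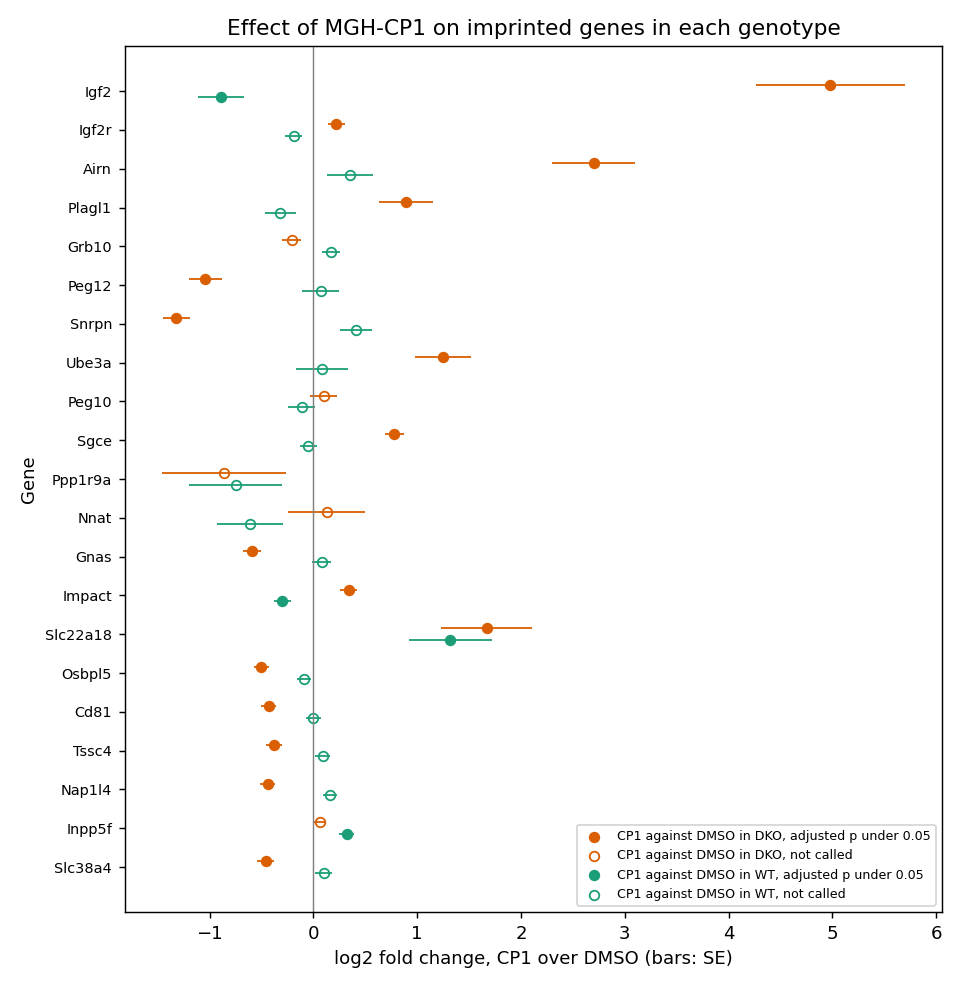
Log2 fold change of CP1 over DMSO with its SE as bars in DKO cells (upper point of each pair) and in WT cells (lower point) for 21 imprinted genes, filled where the adjusted p was under 0.05. Left out were Phlda2 and the members under 10% of WT in DMSO other than Igf2, Airn and Plagl1. Some of those left out had large values. In DKO cells these were Dlk1 (4.95), Meg3 (3.34), Kcnq1ot1 (2.98) and Ndn (−1.40), none called. In WT cells they were Phlda2 (4.33, not called), Zim1 (1.13, not called) and Mest (−1.34, called). Among the genes shown, Igf2 (4.98) and Airn (2.70) lie far to the right in DKO cells and Snrpn (−1.32) and Peg12 (−1.04) to the left. Most WT points shown lie near 0.

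In WT cells CP1 changed about as small a share of the members as of all genes. Of 32 tested members 2 were higher and 3 lower in WT CP1 than in WT DMSO, 15.6%, where 17.8% of all genes were called, 7.50% higher and 10.3% lower. Igf2 was lower, the opposite of its direction in DKO cells, with 2.54, 2.34, 4.22 and 2.58 CPM in WT CP1 against 4.97 and 5.72 CPM in WT DMSO (log2 fold change −0.89, SE 0.22, adjusted p = 0.0142), a call that was lost without either WT DMSO library. Mest had 11.34, 8.99, 19.77 and 22.14 CPM in WT CP1 against 38.04 and 35.37 CPM in WT DMSO (−1.34, SE 0.32, adjusted p = 0.0215, lost without any 1 of 4 libraries). Impact was lower by a smaller amount (−0.30, SE 0.08, adjusted p = 0.0155), a call lost without WT DMSO at 2 days or either WT CP1 library of that day. Inpp5f (0.32, SE 0.07, adjusted p = 0.00458, lost without either WT DMSO library) and Slc22a18 (1.32, SE 0.40, adjusted p = 0.0389, lost without any 1 of 8 libraries) were higher. Without either WT DMSO library 1 member was called, and without either DKO DMSO library 11, so the count in WT cells depended on single control libraries. Dlk1 had 13.10, 14.21, 18.82 and 18.94 CPM in WT CP1 against 27.02 and 26.71 CPM in WT DMSO and missed the threshold (−0.75, SE 0.24, adjusted p = 0.0747).

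The CP1 effect itself differed between genotypes for 18 of 32 members, 56.2%, against 42.4% of all genes: 7 were higher in DKO than in WT cells (20.1% of all genes) and 11 lower (22.3%). Among these 18, leaving out Phlda2 with 0 counts in WT DMSO, the largest differences were those of Igf2, where the effect in DKO cells minus that in WT cells was 5.87 on the log2 scale (SE 0.73, adjusted p = 4.73e-05), and Airn, 2.35 (SE 0.48, adjusted p = 0.00162). Snrpn followed with −1.73 (SE 0.20, adjusted p = 2.85e-05). Igf2 had 1 count in DKO DMSO, so the size of its difference is uncertain while its direction was the same without any 1 library (5.25 to 8.13). On the log2(TPM + 1) scale 11 members were higher and 2 lower, so the balance of directions depended on the scaling.

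**Figure D4:**
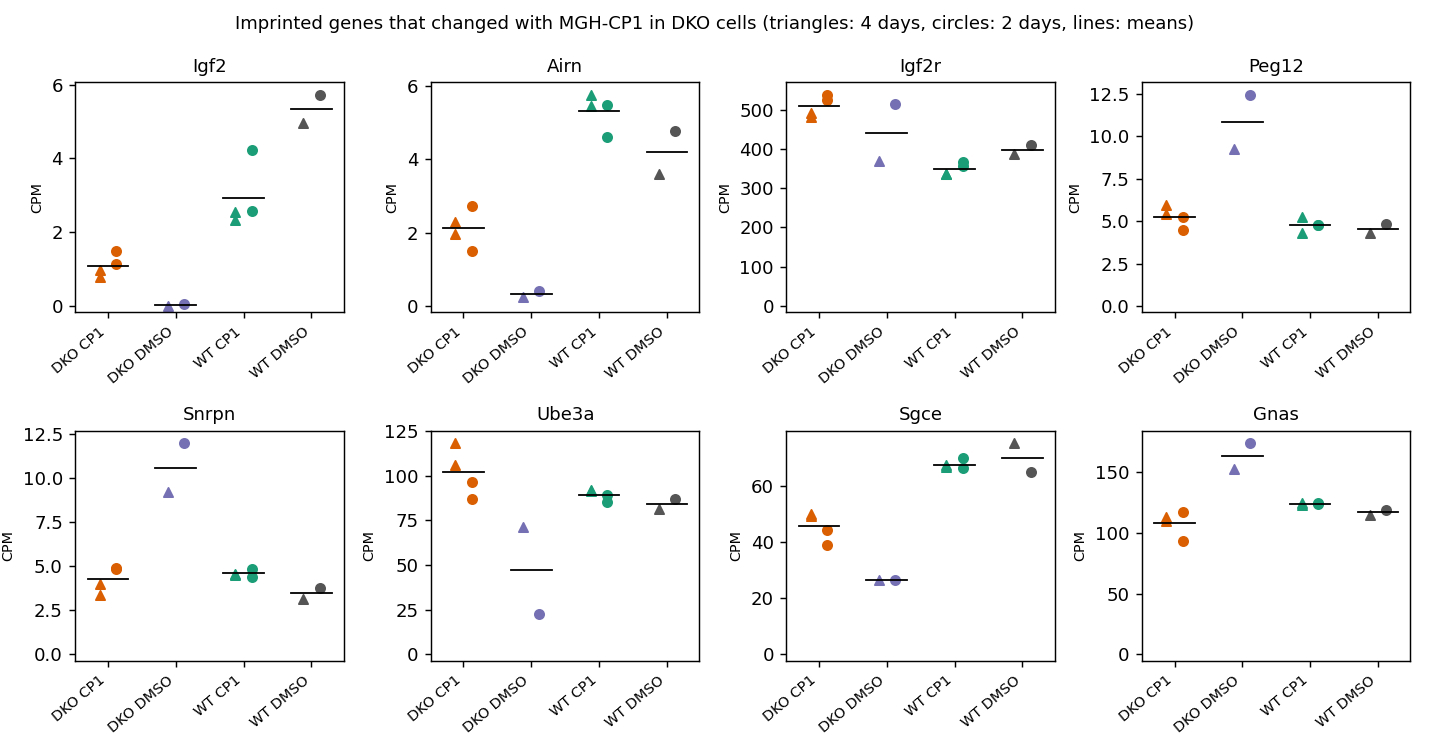
CPM in each library for Igf2, Airn, Igf2r, Peg12, Snrpn, Ube3a, Sgce and Gnas, in the order DKO CP1, DKO DMSO, WT CP1 and WT DMSO from left to right; each point is 1 library (triangle, 4 days; circle, 2 days) and lines are means. In Peg12 and Snrpn the 4 DKO CP1 libraries sit between 3.39 and 5.98 CPM, below both DKO DMSO libraries and close to the WT libraries.

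Under CP1 the genotypes still differed at most members. Of 32 tested members 3 were higher and 22 lower in DKO CP1 than in WT CP1, 78.1%, against 59.5% of all genes, 28.9% higher and 30.6% lower. The median log2 fold change was −0.89 over the members and −0.01 over all genes. Of the paternally expressed members 1 was higher and 10 lower, and of the maternally expressed 2 were higher and 11 lower. Of the 13 members below 10% of WT in DMSO, 11 were below 10% under CP1 too, 34.4% of those tested against 3.91% of all genes. As in DMSO, most of them passed the filter through WT libraries alone, so this share is also only a description. Igf2, at 37.5% of WT, and Airn, at 39.8%, were the exceptions, and both were still called lower, Igf2 by 1.42 on the log2 scale (SE 0.22, adjusted p = 0.000117) and Airn by 1.33 (SE 0.19, adjusted p = 4.82e-05).

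Most of the members that were far lower in DKO DMSO stayed far below WT under CP1, with more libraries behind the comparison. Ndn had 4 counts in DKO CP1 and 22.02, 23.90, 26.90 and 26.34 CPM in WT CP1 (log2 fold change −8.76, SE 0.22, adjusted p = 4.32e-12). Rian had 12 counts in DKO CP1 and 24.36, 25.54, 29.64 and 28.59 CPM in WT CP1 (−7.58, SE 0.27, adjusted p = 1.66e-10). Kcnq1ot1 had 3 counts in DKO CP1 against 554 in WT CP1, a 147-fold difference with a counting interval of 49.9 to 713. The calls for Dlk1, Meg3, Mirg, Peg3 and Kcnq1ot1, which were lost in DMSO without 1 library, stayed without any 1 of the 12 libraries here, and Zim1, at 0 against 43 counts, was at least 11.4-fold lower. The log2 fold change of Dlk1 was −8.21 (SE 0.50) and −11.42 without repeat 2 of DKO CP1 at 2 days, and that of Meg3 −7.07 (SE 0.48) and −9.08. H19 had 6.07 ± 7.31 CPM in DKO CP1 and 250 ± 6.07 CPM in WT CP1 (SD, n = 4 each), with −5.83 as log2 fold change (SE 0.48, adjusted p = 3.8e-05). Mest was lower by 4.85 (SE 0.45) and Plagl1 by 4.06 (SE 0.15) on the log2 scale. For Plagl1 this was a smaller difference than in DMSO, a change that was itself called (1.21, adjusted p = 0.00795).

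Among the expressed members Igf2r was higher under CP1 in DKO cells, at 508 ± 27.1 CPM against 349 ± 15.3 CPM in WT CP1 (SD, n = 4 each; log2 fold change 0.54, SE 0.07, adjusted p = 1.01e-05), and Inpp5f (0.40, SE 0.05) and Phlda2 (2.47, SE 0.60, from 46 against 11 counts and with groups that overlap) were higher too. Cd81 (−0.95), Osbpl5 (−0.94), Slc38a4 (−0.83), Tssc4 (−0.69), Sgce (−0.57), Nap1l4 (−0.54) and Grb10 (−0.48) were lower, each with an SE of 0.05 to 0.07. Ppp1r9a and Gnas were called lower at an adjusted p of 0.0354 each, and each call was lost without any 1 of 6 libraries. Peg12 (0.15), Snrpn (−0.12), Ube3a (0.19), Impact (−0.08), Peg10 (0.04), Nnat (−0.07) and Slc22a18 (0.10) did not pass. Peg12, Snrpn, Ube3a and Impact were thus called between genotypes in DMSO and not under CP1, and for each of these 4 the difference between the CP1 effects was itself called.

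Between days under CP1 a minority of the members was called, as of all genes. In WT cells 3 were higher and 2 lower at 4 days than at 2 days, 15.6% against 15.3% of all genes (7% higher and 8.26% lower). Mest fell to 11.34 and 8.99 CPM at 4 days, against 19.77 and 22.14 CPM at 2 days (log2 fold change −1.04, SE 0.12, adjusted p = 3.25e-07). Peg3 had 12.95 and 10.39 CPM at 4 days against 5.08 and 6.16 CPM at 2 days (1.05, SE 0.18, adjusted p = 0.000106). Peg10 (0.50, SE 0.10) and Impact (0.22, SE 0.05) were higher too, and Cd81 (−0.24, SE 0.04) was lower. In DKO cells 3 were higher and 3 lower at 4 days, 18.8% against 24.2% of all genes (12.1% higher and 12% lower). Ube3a (0.30, SE 0.06, adjusted p = 0.00047), Sgce (0.25, SE 0.07) and Impact (0.37, SE 0.05, adjusted p = 3.61e-06) were higher, and Igf2r (−0.13, SE 0.04) and Inpp5f (−0.17, SE 0.06) lower by little. Peg3 had 1 count at 4 days against 13 at 2 days, a call lost without repeat 1 at 4 days or repeat 2 at 2 days, which held 10 of the 13. The calls of Sgce, Igf2r and Inpp5f here were also lost without 1 library (any 1 of 3, 5 and 11 libraries). Impact was the only member called in both genotypes in the same direction, and its WT call was lost without repeat 2 of either day.

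Genes that maintain imprints, and the partners of IGF2, were read beside the members. Of 19 tested genes of imprint maintenance and DNA methylation, 6 were higher and 6 lower in DKO DMSO than in WT DMSO, and under CP1 in DKO cells 6 were higher and 6 lower than in DMSO. The methylcytosine oxidase gene Tet1 averaged 0.15 CPM in DKO DMSO against 6.01 CPM in WT DMSO (log2 fold change −5.32, SE 0.50, adjusted p = 7.46e-07). Ehmt2, a histone H3 lysine methyltransferase gene, averaged 552 CPM in DKO DMSO against 243 CPM in WT DMSO (1.17, SE 0.09), and Trim28, the corepressor recruited by ZFP57, 555 against 339 CPM (0.71, SE 0.09). With CP1 in DKO cells these 3 moved the other way, by 3.75, −0.85 and −0.68. The part of these genes in the results above was not tested. Of 12 genes around IGF2 (its receptors, its binding proteins, the proteins that bind its mRNA, and the related factor Igf1), 2 were higher and 9 lower in DKO DMSO, and 6 were higher and 4 lower with CP1 in DKO cells. Igf1 averaged 5.34 CPM in DKO DMSO against 133 CPM in WT DMSO (−4.71, SE 0.12), and 106 CPM in DKO CP1 (4.32, SE 0.11, against DKO DMSO). The binding protein genes Igfbp4 (−3.38, SE 0.13) and Igfbp6 (−3.91, SE 0.15) were lower in DKO DMSO as well. Of 25 other imprinted genes that were tested, outside the 38, 12 were higher and 9 lower in DKO DMSO, with a median of 0.19. Qpct (−5.69, SE 0.30) and Pon3 (−2.69, SE 0.18) were lower and Jade1 (1.19, SE 0.10) higher in DKO DMSO. Over all genes 67.5% were called between genotypes in DMSO and 51.9% with CP1 in DKO cells, and the counts of the imprint maintenance genes, 12 of 19 each time, were near those shares.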

How the data were processed

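Read counts per gene were used from total RNA of 12 libraries, with 0 columns lacking a sample. The deposited counts are whole numbers made with featureCounts 1.5.2 on mm10, per the submitters' processing notes; the aligner and the strand setting are not given in the sources used here. The deposited TPM values are the authors' counts over gene length, rescaled to 1 total in every library; the tables were checked for this. Coordinates are those of the deposited tables.

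Counts were scaled by TMM and tested with edgeR 4.0.16 (quasi-likelihood F-test, robust fit; R 4.3.3), after a filter on low counts (minimum 10, total 15) that kept 16595 of 32168 genes. Genotype and treatment comparisons used 4 means with a day term per genotype (6 residual degrees of freedom) and stand for the mean of both days; day comparisons used 8 group means (4 residual degrees of freedom). A lone DMSO library is thereby assumed to vary like the other groups. SEs are the log2 fold change over the root of F. CPM are counts over TMM-scaled totals. Values are mean ± SD. Bounds for groups at 0 use 3 counts over the group, and ratios with 1 to 3 counts carry exact 95% binomial intervals; both cover counting error only. The tests were checked on simulated counts in which 200 well-counted genes were changed and all genes had the same spread. That check does not cover genes near 0 counts, nor data in which most genes differ.

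Members were named when tested with a mean log2 CPM of at least 2 or when called in any comparison, and the rest were given by counts; of other lists up to 3 called genes with the smallest p were named. H19 and Dlk1 in single libraries, Hells, Kcnq1, Cdkn1c and Dio3 were named after their values were seen. The members, lists and markers were chosen with earlier results of these data known. Settings tried were RLE size factors, no filter, DESeq2 1.42.0, limma 3.58.1 on log2(TPM + 1), 8 group means, each day alone, the DMSO or CP1 libraries alone, and each library left out.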

Additional observations from a re-analysis of the deposited data

Results flagged for a closer look

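The effect of CP1 differed between genotypes, by a test of the difference itself (edgeR, adjusted p under 0.05 over all genes), for 18 imprinted genes. Each value is the log2 fold change of CP1 over DMSO in DKO cells minus that in WT cells.

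Among paternally expressed genes the difference was 5.87 for the growth factor Igf2 (adjusted p = 4.73e-05), 2.35 for the antisense RNA Airn (0.00162), 1.21 for the zinc finger gene Plagl1 (0.00795), 0.82 for Sgce (0.00017) and 0.63 for Impact (0.000498). It was −1.73 for the splicing factor gene Snrpn (2.85e-05), −1.11 for Peg12 (0.00266), −0.56 for Slc38a4 (0.00193) and −0.26 for Inpp5f (0.0376). Igf2 rose with CP1 in DKO cells and fell in WT cells, and Impact did the same. Inpp5f was called in 2 of 12 fits with 1 library left out.

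Among maternally expressed genes the difference was 1.17 for the ubiquitin ligase gene Ube3a (0.0318) and 0.41 for the receptor gene Igf2r (0.0108). It was −6.20 for Phlda2 (0.0173), a value that rests on 0 counts in WT DMSO. The other coding genes of the Kcnq1ot1 cluster had −0.61 for Nap1l4 (0.000259), −0.47 for Tssc4 (0.00351), −0.43 for Cd81 (0.00465) and −0.40 for Osbpl5 (0.00477), and Grb10 had −0.38 (0.0234). Gnas, of mixed origin, had −0.67 (0.000957). Ube3a was called in 5 of 12 fits with 1 library left out, with 0.57 without DKO DMSO at 2 days, and Grb10 in 8 of 12.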

How the results depend on the processing

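Of 101 called effects of members, 100 were kept with RLE size factors, 97 without a low-count filter, 94 with DESeq2 and 67 with limma on log2(TPM + 1), where 6 turned direction. Of 90, all 90 were kept with 8 group means, 83 at 2 days alone and 79 at 4 days alone. With the DMSO libraries alone 20 of 24 were kept.

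For CP1 in WT cells 5 members were called; the count was 8 without a filter (6 of them lower), 3 with DESeq2 (1 higher), 12 with 8 group means (5 higher, 7 lower), 10 at 2 days alone (7 lower) and 9 at 4 days alone (6 lower). The log2(TPM + 1) scale gave 1 higher there. On that scale DKO against WT in DMSO gave 3 higher, CP1 in DKO cells 3 lower, and the difference of CP1 effects 11 higher and 2 lower; without a filter that difference gave 11 higher. Between days the same scale gave 1 call in WT and 1 in DKO cells, each lower, with 0 higher by limma (1 in each genotype at an unadjusted p under 0.05, and 3 in WT and 2 in DKO cells by DESeq2). The median of all genes lay between −0.06 and 0.02 in the main fits and between −0.23 and 0.38 on the log2(TPM + 1) scale, where the share of higher among called genes for the difference of CP1 effects was 91.3%, against 47.5% with TMM. That scale turned the difference of CP1 effects to 0.12 for Grb10, 0.10 for Osbpl5, 0.07 for Cd81, 0.03 for Tssc4 and 0.24 for Inpp5f, and DKO against WT under CP1 to 0.05 for Gnas, none of them called there. At 4 days alone the difference for Peg3 was −3.67 (adjusted p = 0.0402). The causes were not tested.

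With each library left out in turn, the members called ranged from 22 to 25 for DKO against WT in DMSO (5 to 6 higher, 16 to 20 lower), from 22 to 26 under CP1 (3 to 4, 19 to 22), from 16 to 19 for CP1 in DKO cells (7 to 10, 9 to 10) and from 13 to 19 for the difference of CP1 effects (6 to 9, 7 to 11; 7 lower without WT DMSO at 2 days). For CP1 in WT cells they ranged from 1 to 11 (0 to 4 higher, 1 to 7 lower): 1 without either WT DMSO library, 2 without WT CP1 at 2 days repeat 1, 3 without repeat 2 of either day, 11 without either DKO DMSO library. Where 0 were higher in edgeR, 2 were at an unadjusted p under 0.05. Between days they ranged from 4 to 9 in WT cells (2 to 3, 2 to 6; 9 without either DKO CP1 library of 2 days) and from 2 to 11 in DKO cells (2 to 4, 0 to 7): 11 without repeat 1 of 2 days, 2 and 3 without repeats 1 and 2 of 4 days. The 0 lower there came without repeat 1 of 4 days, with 4 at an unadjusted p under 0.05.

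Libraries with the same repeat number showed no shared deviation: deviations correlated at −0.040 to 0.017 between groups. This cannot show whether repeats were handled as pairs. In the 8 CP1 libraries alone a replicate block gave 24 calls between genotypes (3 higher, 21 lower), the same as without the block, 5 between days in WT cells with and without it, and 6 in DKO cells against 7 without it. Over all genes the block gave more calls: 11319 against 11211 between genotypes, 2929 against 2569 between days in WT cells and 4343 against 4029 in DKO cells. Depth limits Zim1, Mirg, Ppp1r9a, Phlda2 and Slc22a18, at about 1 CPM or less in most groups.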
